A study of Mus musculus with 4 samples.

Results

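Outflow tract cardiomyocytes are the muscle cells of the tube that carries blood from the embryonic heart to the aortic sac and later divides into the aorta and the pulmonary trunk. They are added to the heart tube late, from second heart field progenitors behind it. The transcription factor Isl1 marks those progenitors, BMP4 is a ligand made by the outflow tract wall, and Sema3c is a secreted semaphorin that guides migrating cells through plexin and neuropilin receptors. In these data the cells were chosen by the counts of 7 genes. A cell was kept when Tnnt2, cardiac troponin T, was at 10 or more CP10K (UMIs of a gene per 10000 UMIs of the cell), when it had at least 2 UMIs of Sema3c and at least 1 UMI of Isl1, Bmp4 or Tdgf1 (a Nodal co-receptor), no UMI of Shox2 (a sinus venosus factor), and less than 10 CP10K of Nppa (the natriuretic peptide of chamber muscle). A UMI, or unique molecular identifier, counts 1 captured mRNA molecule. Of 28025 cells that passed the filters on genes, UMIs and mitochondrial share, 9776 were cardiomyocytes by the Tnnt2 limit and 365 of these met the whole rule. The other 9411 are called other cardiomyocytes here.

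The cells came from hearts of E10.5 mouse embryos (mid-gestation) on the C57BL/6J background. There were 2 libraries of wild-type hearts (Wt1 and Wt2) and 2 of hearts homozygous for Cyp51 I383V/I383V (Ho1 and Ho2), a knock-in made with CRISPR/Cas9 in the gene for lanosterol 14-alpha demethylase, an enzyme of cholesterol synthesis. The allele is constitutive, so all cells of a Ho heart carry it, and how many hearts entered a library is not given in the sources used here, so p-values measure the spread between these libraries. The files hold 33589 barcodes, and the libraries Wt1, Wt2, Ho1 and Ho2 held 109893733, 117034633, 127018819 and 107377100 UMIs. Between 7 and 28 barcodes of passing cells were shared by any pair of libraries, and none was shared among the outflow tract cardiomyocytes. Ho1 stands apart from the other libraries. Its outflow tract cells had Xist, the RNA of the inactive X chromosome, at 250.3 CPM and no UMI of the 4 Y chromosome genes, whereas Xist stood at 0.86 CPM in Wt1 and was absent from the Wt2 and Ho2 cells. Genotype and sex therefore overlap in part, and the main counts are given with and without Ho1.

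The libraries Wt1, Wt2, Ho1 and Ho2 gave 64, 108, 94 and 99 such cells. Their median depth per library, in the same order, was 16186.5, 18555, 17561.5 and 20719 UMIs, against 14542, 19800, 19117 and 19196 UMIs in the other cardiomyocytes of the same libraries. The Sema3c step removed most cardiomyocytes and left 115, 177, 249 and 224 cells in Wt1, Wt2, Ho1 and Ho2. The step on Isl1, Bmp4 and Tdgf1 left 87, 129, 136 and 144, the absence of Shox2 left 66, 111, 98 and 101, and the Nppa limit removed only 2, 3, 4 and 2 more. Many cells lay near the Sema3c limit. Cells that met every other condition with 1 Sema3c UMI numbered 74, 98, 95 and 91, while 38, 49, 41 and 34 of the chosen cells had exactly 2. Just outside the Tnnt2 limit, at 5 to 10 CP10K, lay 4, 10, 2 and 6 cells. Inside it, at 10 to 20 CP10K, lay 16, 14, 8 and 17 of the chosen cells.

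The levels of the 7 genes are a description, since they chose the cells. Levels below are in CPM, UMIs of a gene per 1000000 UMIs summed over the cells of a library, scaled by TMM factors. The totals and factors were set on the genes that passed the filter of each comparison, so the CPM of a gene in the same cells differs slightly between the comparison of classes and that of genotypes. Sema3c (chr5:17574281-17730268, plus strand, GRCm38) stood at 155.6, 162.2, 186.9 and 176.3 CPM in Wt1, Wt2, Ho1 and Ho2 and between 10.1 and 14.99 CPM in the other cardiomyocytes. Bmp4 was at 379.6, 444.4, 364.8 and 358.4 CPM, and Isl1 at 150.5, 207.6, 114.6 and 203.1 CPM. Tdgf1 ranged from 11.1 to 32.6 CPM. Tnnt2 was at 3456 to 4109 CPM, and the range of the other cardiomyocytes, 3360 to 3472 CPM, overlapped with it. Of Isl1, Bmp4 and Tdgf1, Bmp4 was found in nearly all cells. It was detected in 93.8%, 99.1%, 96.8% and 97.0% of the outflow tract cells of Wt1, Wt2, Ho1 and Ho2, Isl1 in 71.9%, 84.3%, 61.7% and 77.8%, and Tdgf1 in 9.38%, 9.26%, 23.4% and 16.2%. In endothelial cells (at least 3 UMIs of Cdh5, Pecam1 and Kdr together, median depth 13982 to 17433.5 UMIs), Bmp4 was detected in 12.7% to 22.4%, Isl1 in 10.4% to 21.7% and Tdgf1 in 0.146% to 0.309%. Of the endothelial cells 5.28% to 11.8% passed the Tnnt2 limit, and 8, 7, 8 and 6 of the outflow tract cells of Wt1, Wt2, Ho1 and Ho2 had 3 or more endothelial UMIs. Scrublet marked 3, 5, 5 and 4 of the outflow tract cells as doublets, a share of 4.04% to 5.32%.

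Muscle and outflow tract genes that the rule did not use were then looked at as a description of the label. Myl7 and Actc1, sarcomere genes, were detected in 99.0% to 100% of the outflow tract cells of each library and Ttn in 95.3% to 100%. In endothelial cells, which should lack them, a UMI of Myl7 was found in 68.4% to 89.6%, of Actc1 in 45.1% to 75.7% and of Ttn in 15.6% to 38.4%. Wnt11, a non-canonical Wnt ligand of outflow tract muscle, was at 122.8, 127.4, 84.4 and 102.2 CPM in Wt1, Wt2, Ho1 and Ho2, against 23.7 to 29.6 CPM in the other cardiomyocytes, a log2 fold change of 2.06 (SE 0.08). The lowest outflow tract library was above the highest of the others.

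**Figure D1:**
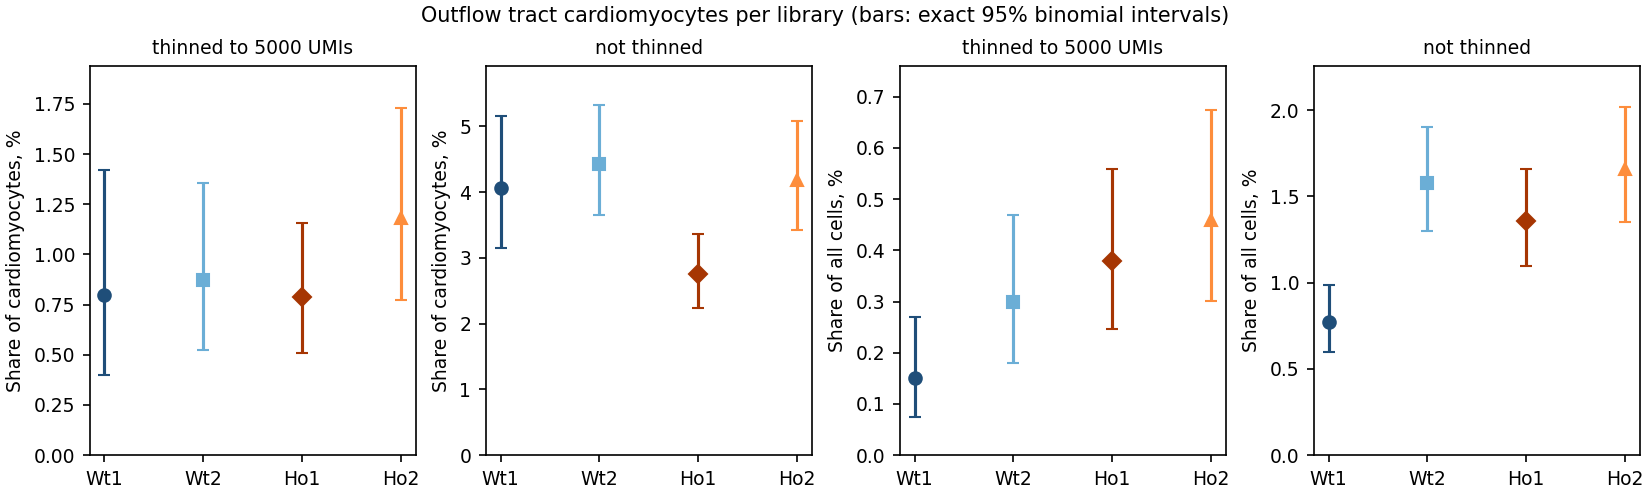
Share of outflow tract cardiomyocytes in each library, among cardiomyocytes (left pair) and among all passing cells (right pair), with every cell thinned to 5000 UMIs or not thinned. Points are libraries and bars are exact 95% binomial intervals, which cover counting error only. Among cardiomyocytes, the 2 Wt libraries lie between the 2 Ho libraries when thinned (0.797% and 0.870% in Wt, 0.786% and 1.18% in Ho), and Ho1 is lowest when not thinned (2.76%).

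Whether the mutant hearts held more or fewer of these cells was asked as a share per library. After every cell was thinned to 5000 UMIs and the rule applied again, which leaves out 317 to 977 shallower cells per library, the share among cardiomyocytes was 0.797% (11 of 1380) in Wt1 and 0.870% (19 of 2183) in Wt2, and 0.786% (25 of 3179) in Ho1 and 1.18% (26 of 2199) in Ho2. Wt had a mean of 0.834% ± 0.0518 and Ho one of 0.984% ± 0.280 (SD over 2 libraries), and the exact two-sided permutation p was 1. With 2 libraries against 2 no p under 0.33 can be reached. Without thinning the shares were 4.07% and 4.43% in Wt and 2.76% and 4.19% in Ho, so the difference turned its sign. Among all passing cells the thinned share was 0.151% and 0.300% in Wt and 0.379% and 0.460% in Ho. The genotypes did not overlap here, at the smallest p this design allows (exact permutation p = 0.33), and they did when not thinned (0.773% and 1.58% in Wt, 1.36% and 1.66% in Ho). Thinned to 2000 UMIs they did not overlap the other way round, with 0.0845% and 0.117% in Wt and 0.0577% and 0.0838% in Ho among all cells, and 0.427% and 0.322% in Wt and 0.116% and 0.210% in Ho among cardiomyocytes (exact permutation p = 0.33 for both), from 4 to 8 outflow tract cells per library. Thinned to 5000 UMIs with Tnnt2 at 30 CP10K or more, Ho lay above Wt among cardiomyocytes, with 1.24% and 1.37% against 0.861% and 1.02% (exact permutation p = 0.33). No direction is read from these shares. Without Ho1 the thinned difference of Ho minus Wt was 0.349 percentage points among cardiomyocytes and 0.235 among all cells.

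Outflow tract cardiomyocytes were then compared with the other cardiomyocytes of the same library. For the 13603 genes tested, leaving out the 7 of the rule, 4085 were called at an edgeR adjusted p under 0.05 (30%), and 39.0% had an unadjusted p under 0.05. Of the genes tested, 1940 were higher in outflow tract cardiomyocytes (14.3%) and 2145 lower (15.8%). The cells were chosen within these libraries by genes that accompany others, so genes that follow Sema3c, Isl1 or Bmp4 were bound to be higher, and genes that follow Nppa or Shox2 lower. The calls therefore describe the chosen cells, and they are not independent support for the rule. Without Ho1, 3291 genes were called, of which 3167 were among the 4085. When the other cardiomyocytes were limited to the 5145 that also lacked Shox2 and had low Nppa, 3983 of 12589 tested were called, and 3602 of these were among the 4085.

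The genes with the largest rises came from several functions. Nrp2 (chr1:62703285-62818695, plus strand), a neuropilin receptor for class 3 semaphorins, was at 159.1, 129.3, 113.4 and 156.3 CPM in the outflow tract cells of Wt1, Wt2, Ho1 and Ho2, and at 18.1, 12.9, 7.0 and 12.7 CPM in the other cardiomyocytes. Its log2 fold change was 3.52 (SE 0.11). Mybpc1, the slow skeletal isoform of myosin-binding protein C, was at 89.1, 72.8, 90.5 and 82.2 CPM against 8.40, 6.22, 2.80 and 5.27 CPM (log2 fold change 3.97, SE 0.17). For both genes the lowest outflow tract library was several times the highest of the others. Tnc, the matrix protein tenascin C, was at 119.3, 184.0, 110.4 and 158.1 CPM against 9.3 to 20.1 CPM. Itm2a, a membrane protein, rose from 130.2 to 181.9 CPM in the other cardiomyocytes to 1092 to 2036 CPM. Rspo3, a secreted enhancer of canonical Wnt signalling, was at 414.2, 459.2, 576.5 and 360.7 CPM against 47.7 to 95.5 CPM. The other 10 of the 15 largest rises were Shisal2a, Tlx1, Il17b, Psd, Arhgef28, Masp1, G0s2, Tril, Tgfbi and Phlda2. All 15 were called without Ho1 and against the limited set of other cardiomyocytes, with log2 fold changes of 2.34 to 3.65 and of 1.99 to 3.16. With every cell thinned to 5000 UMIs 14 of the 15 were called, and the largest adjusted p was 0.075 (edgeR). Genes of both directions were chosen among those that moved alike in all 4 libraries.

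The largest falls included genes known from chamber, atrial and sinus venosus muscle, among others. Nppb, the partner of Nppa in chamber muscle, was at 6.92, 31.0, 28.3 and 23.2 CPM in Wt1, Wt2, Ho1 and Ho2 and at 112.2, 275.2, 249.2 and 192.3 CPM in the other cardiomyocytes (log2 fold change −3.18, SE 0.09). Vsnl1, a calcium sensor of the sinus node region, was at 4.32 to 15.7 CPM against 100.6 to 174.3 CPM, and its log2 fold change was −3.93 (SE 0.17). Tbx5, a factor of the atria and left ventricle, was at 3.46 to 9.65 CPM against 39.6 to 52.1 CPM. Nr2f1 and Nr2f2, factors of atrial identity, had log2 fold changes of −3.32 and −2.62. Calca, which encodes calcitonin and its related peptide, was at 0, 1.39, 4.22 and 0.45 CPM against 34.2 to 55.0 CPM. The others described here were Gal, Cav1, Ap3b2, Tmem163, Stard10, Cited1, Igfbpl1 and Dsc2. All 14 were called against the set limited to low Nppa and no Shox2, where the log2 fold change ranged from −4.26 to −1.86 and that of Nppb was −1.93. With cells thinned to 5000 UMIs 13 of the 14 were called, and the largest adjusted p was 0.093 (edgeR).

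**Figure D2:**
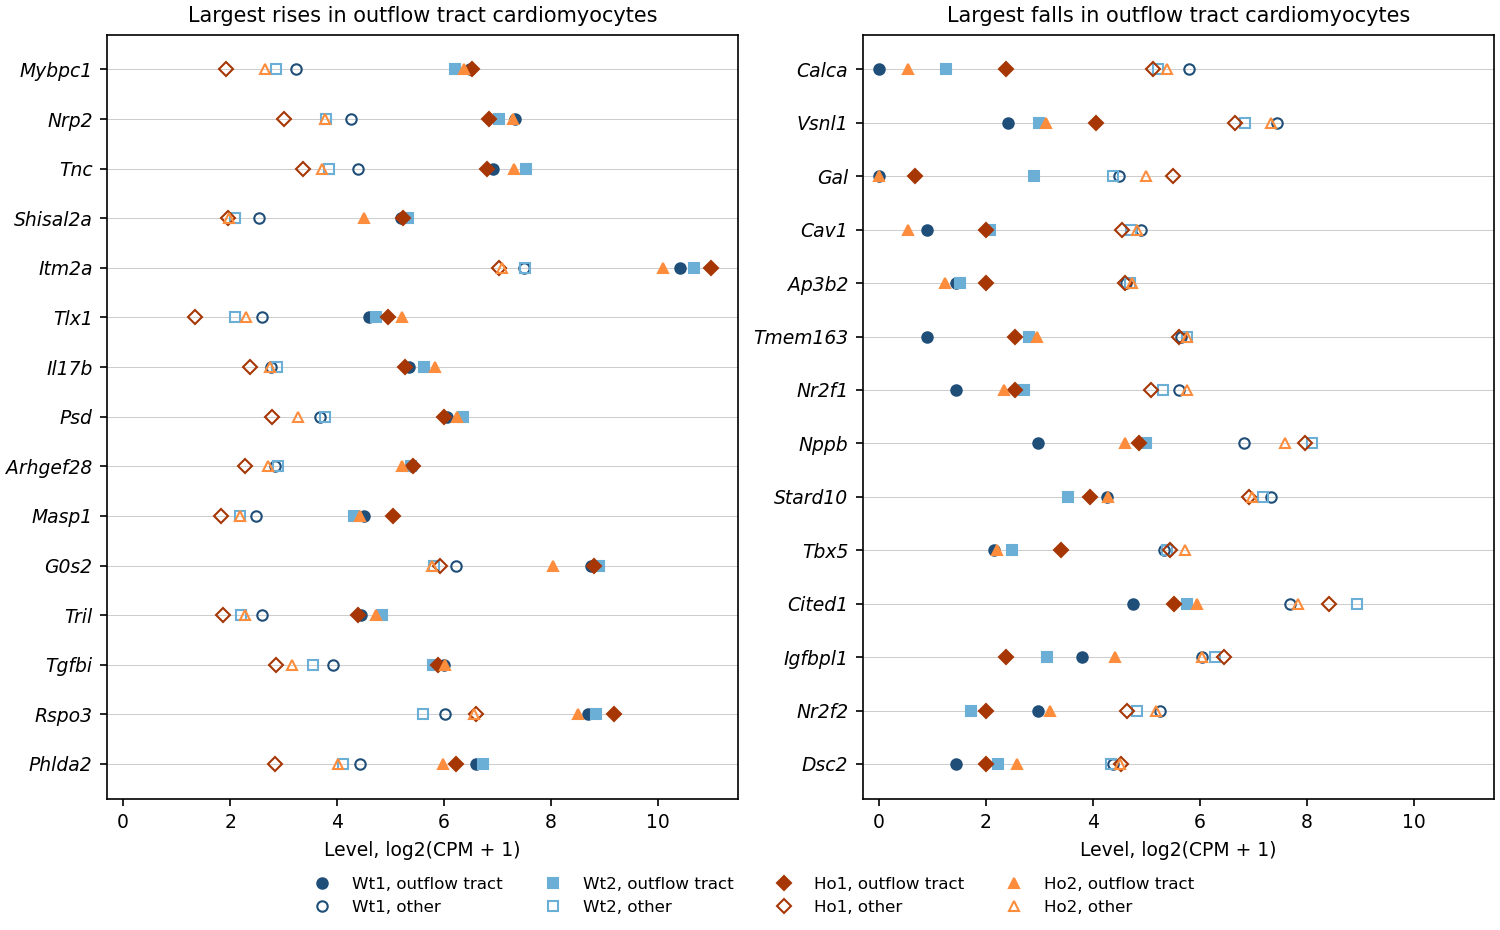
Level of the 15 largest rises (left) and 14 of the largest falls (right) on a log2(CPM + 1) axis, with filled symbols for outflow tract cardiomyocytes and open symbols for other cardiomyocytes, and 1 symbol shape per library. In each gene all 4 filled symbols lie on 1 side of all 4 open symbols. The fold changes of the left panel run from 2.60 to 3.97 and those of the right panel from −4.70 to −2.52 on the log2 scale.

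Set beside 5 other sets of cells, the leading genes were not all alike. Here levels are CPM with no TMM factor. Mybpc1 was at 74.2 to 91.6 in outflow tract cardiomyocytes and at 4.1 to 14.0 in other cardiomyocytes that lacked Shox2 and had low Nppa, with 1.7 or less in all cells below the Tnnt2 limit together. Nrp2 was also at 144.3 CPM in the cells of Wt2 that met the Sema3c and Isl1, Bmp4 or Tdgf1 conditions with low Tnnt2, where it was at 20.7 to 49.0 CPM in the other libraries. These were 138, 81, 23 and 139 cells in Wt1, Wt2, Ho1 and Ho2. Wnt11 was at 26.7 to 49.2 CPM in all cells below the Tnnt2 limit, above the 8.1 to 16.6 CPM of other cardiomyocytes with Shox2 or with high Nppa. It was detected in 45.1% to 53.4% of endothelial cells. Nppb was at 399.2 to 576.2 CPM in other cardiomyocytes with high Nppa and at 47.1 to 105.4 CPM in those with low Nppa and no Shox2, and all 4 outflow tract libraries were below both ranges.

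**Figure D3:**
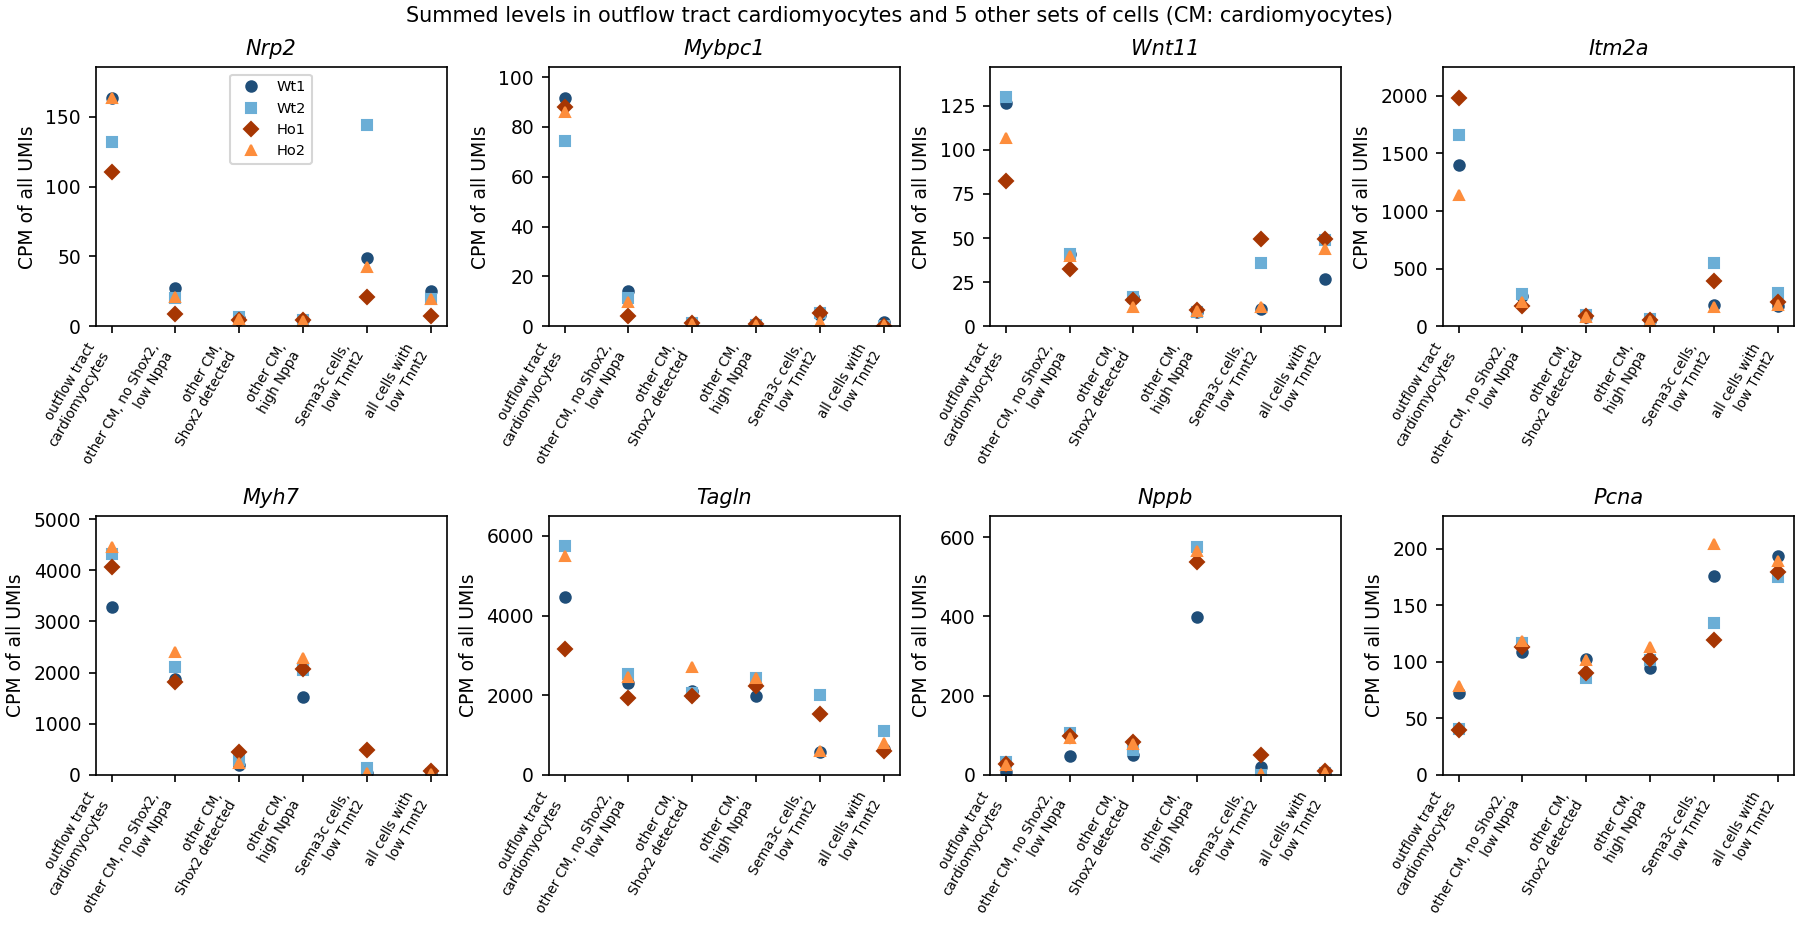
Level of 8 genes, in CPM with no TMM factor, in outflow tract cardiomyocytes and in 5 other sets of cells of the same libraries. Each symbol is a library. Nrp2, Mybpc1, Itm2a and Myh7 are highest in the outflow tract cells in each library except Nrp2 in Wt2 (131.8 against 144.3 CPM in the Sema3c cells with low Tnnt2), and Nppb and Pcna are lower there than in each set of other cardiomyocytes.

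Transcription factors of the outflow tract and second heart field were called higher in 15 of 29 tested genes and lower in 3, against 14.3% and 15.8% of all genes. The median log2 fold change of the list was 0.45, beside −0.01 for all genes. Hand1, a factor of the outer curvature and outflow tract, was at 92.5, 88.0, 41.6 and 74.95 CPM in Wt1, Wt2, Ho1 and Ho2 against 15.5 to 32.9 CPM (log2 fold change 1.78). Msx2, a target of BMP signals, was at 45.0 to 51.4 CPM against 13.0 to 18.6 CPM (1.61). Nkx2-6, a factor of the pharyngeal pole of the heart, had the largest change of the list at a low level, 9.1 to 16.4 CPM against 0.16 to 2.0 CPM (3.90). Tbx1, a second heart field factor, rose by 2.47 on the log2 scale at 0.60 to 6.05 CPM, and Tbx20, a T-box factor of the myocardium, rose by 0.92. The 3 called lower were Gata4 (log2 fold change −0.36), its cofactor Zfpm2 (−1.12) and the epicardial factor Tcf21 (−0.60). Gata4 was not called without Ho2, at −0.27. With every cell thinned to 5000 UMIs, 7 of 26 tested genes of the list were higher and 0 lower. Of all 11086 genes in that setting 240 were higher and 697 lower.

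Lists of signalling genes held calls in both directions, to be read beside the 14.3% higher and 15.8% lower of all genes. In the list for BMP and TGF-beta 16 of 38 were higher and 3 lower. With every cell thinned to 5000 UMIs, 5 of 34 in that list were higher and 1 lower. Of all 11086 genes in that setting 240 were higher and 697 lower. The BMP targets Id1 (log2 fold change 1.64) and Smad6 (1.45) rose, Tgfb2, a ligand, rose by 1.15, and Bmp10, a ligand of trabecular muscle, fell by 2.71. For FGF signalling 9 of 19 were higher and 1 lower. Its ligand Fgf8 was at 22.5, 32.9, 9.65 and 24.5 CPM in Wt1, Wt2, Ho1 and Ho2 against 2.89 to 5.75 CPM, and its target Etv5 rose by 1.73. For Notch 6 of 17 were higher and 1 lower, the former with the ligand Jag1 (0.93) and Hes1 (1.14), a target. In the Wnt list 11 of 44 were higher and 9 lower, with Rspo3 and Wnt11 among the former, and Wnt2 (−1.96) and the inhibitor Sfrp1 (−0.84) among the latter. In the semaphorin and plexin list 5 of 25 were higher and 5 lower. The lower count was 3 without Ho1, without Ho2 or without Wt2, and 2 under DESeq2 and against the limited set of other cardiomyocytes, so these counts lie near those of all genes. Nrp2 rose while Nrp1, the other neuropilin, was at 10.9 to 30.1 CPM against 37.3 to 43.5 CPM (−1.12). For retinoic acid 4 of 16 were higher and 3 lower, and Crabp1, a retinoic acid binding protein, was at 94.1 to 130.6 CPM against 12.4 to 48.4 CPM. The hedgehog list had 3 higher and 3 lower of 23, which is no more than the shares of all genes, and Ptch1, receptor and target of the pathway, was at 13.0 to 25.4 CPM against 13.9 to 16.5 CPM and was not called (adjusted p = 0.15, edgeR). Without Ho1 these counts were 15 higher and 4 lower for BMP and TGF-beta, 9 and 2 for FGF, and 9 and 9 for Wnt. Of all 13412 genes tested without Ho1, 1599 were higher and 1692 lower.

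Contractile genes did not move as a block. In the sarcomere list 18 of 50 were higher and 17 lower, with a median log2 fold change of −0.02. Myh7, the slow myosin heavy chain of ventricular muscle, was at 3190, 4244, 4176 and 4271 CPM in Wt1, Wt2, Ho1 and Ho2 against 1426 to 1883 CPM, and rose by 1.20. Myh6, the fast chain, fell by 1.27, from 2127 to 2357 CPM down to 793.8 to 1153 CPM. The ventricular light chain Myl2 fell by 1.11 and the fast troponin T gene Tnnt3 by 2.22, while Tnnt1, the slow skeletal troponin T, rose by 1.41. The list of chamber working myocardium was lower in 23 of 38 and higher in 4, with a median of −0.89. Gja5 and Gja1, the connexins of fast conducting muscle, were at 0.86 to 1.81 CPM against 14.99 to 23.7 CPM and at 0.46 to 4.09 CPM against 12.7 to 25.8 CPM. Gjc1, the connexin of slow conducting muscle, was at 121.7 to 171.5 CPM against 65.7 to 74.9 CPM (1.10). Conduction and ion channel genes were higher in 7 of 22 and lower in 8.

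Smooth muscle genes were higher in 14 of 28 and lower in 1, with a median of 0.26. Acta2, smooth muscle actin, was at 8254, 10804, 8034 and 10054 CPM in Wt1, Wt2, Ho1 and Ho2 and at 5479, 5337, 4730 and 5954 CPM in the other cardiomyocytes (log2 fold change 0.78). Tagln, an actin-binding protein of smooth muscle, was at 4339, 5651, 3256 and 5260 CPM against 2155 to 2486 CPM (0.96). The groups did not overlap for either gene. Myocd, the coactivator of serum response factor in smooth and cardiac muscle, rose by 0.83, and Cald1 by 1.18. A script looked for the CArG box, the site of serum response factor, on both strands in the 250 bases before each RefSeq gene start (GRCm38.p6). It was present for 2 of the 21 genes of the list with a promoter sequence (9.52%), Cnn2 and Vcl, and for 1.62% of 27025 genes with a promoter. The window of Acta2 held no match. Vcl, which links actin to adhesion sites and was at 101.3 to 129.5 CPM against 78.95 to 85.0 CPM, is shown as the example, with the match in capitals (5′ to 3′, plus strand, chr14:20929148-20929397).
Vcl: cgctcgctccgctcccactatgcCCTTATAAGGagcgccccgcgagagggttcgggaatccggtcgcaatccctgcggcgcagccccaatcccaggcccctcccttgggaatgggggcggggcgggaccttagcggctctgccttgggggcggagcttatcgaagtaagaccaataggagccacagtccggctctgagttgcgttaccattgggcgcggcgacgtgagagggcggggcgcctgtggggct

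Matrix genes were higher in 28 of 54 and lower in 7. Besides Tnc, the collagens Col1a1 (1.50), Col1a2 (1.54) and Col2a1 (1.53) rose, and so did Cthrc1, a secreted protein of matrix remodelling, at 71.2 to 124.7 CPM against 15.1 to 31.7 CPM. Eln, the elastin of arterial walls, was at 16.4, 31.0, 14.5 and 14.5 CPM against 0.91 to 4.40 CPM. Of the guidance and adhesion genes 11 of 40 were higher and 10 lower. The chemokine Cxcl12 rose by 1.92 and the ephrin Efna1 by 1.83, and Vcam1, an adhesion receptor for integrins, fell by 1.42.

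Cell cycle genes were lower almost throughout. Of the 38 S phase genes 37 were called lower and none higher, and of the 51 G2/M phase genes 46 were lower and none higher, with median log2 fold changes of −0.98 and −0.75. Pcna, the sliding clamp of DNA replication, was at 70.0, 40.3, 40.4 and 75.4 CPM in Wt1, Wt2, Ho1 and Ho2 against 106.6 to 112.2 CPM. Mki67, a marker of cycling cells, was at 38.0, 18.1, 25.3 and 44.5 CPM against 49.4 to 61.4 CPM. All 4 outflow tract libraries were below all 4 others for both genes, and Wt2 and Ho1 were the lowest. Per cell, the summed G2/M list had a median between 11 and 12.7 CP10K in the 4 libraries, against 32.1 to 37.2 CP10K in the other cardiomyocytes. Its upper quartile differed more between libraries, at 39.6, 14.7, 18.5 and 48.2 CP10K in Wt1, Wt2, Ho1 and Ho2. In the other cardiomyocytes that quartile was 70.9 to 74.4 CP10K. The counts were 35 and 42 without Ho1, and 38 and 48 against the limited set of other cardiomyocytes. Over all genes 1692 of 13412 were lower without Ho1 and 2058 of 12589 against the limited set. Cdkn1c, an inhibitor of cyclin-dependent kinases, was at 4449, 4934, 4529 and 4680 CPM against 1824 to 2336 CPM, a rise of 1.22, and Ccnd2, cyclin D2, fell by 1.15. Cdkn1c belongs to the list of cell cycle arrest genes, of which 7 of 19 were higher and 4 lower. With every cell thinned to 5000 UMIs, which leaves 11, 19, 25 and 26 outflow tract cells, 14 S phase and 27 G2/M genes were called lower and none higher. Their medians were −1.48 and −1.89 where the median of all genes was −0.23. Of all 11086 genes tested in that setting, 697 were called lower and 240 higher.

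E2F factors drive many S phase genes, and because the list moved together their site was looked for in the same 250 bases. The words TTTCCCGC and TTTGGCGC, on both strands, were present for 8 of the 28 S phase genes that have a promoter sequence (28.6%) and for 1.51% of 27025 genes. All 28 were called lower, so genes with and without the words could not be compared within the list. Pcna had no match. A match is a word in the sequence, and binding was not measured. Whether E2F factors have a part in the lower levels was not tested. Those of Mcm6, a subunit of the replicative helicase at 25.3 to 33.2 CPM against 52.4 to 58.4 CPM, and of Cdc6, which loads that helicase and was at 2.59 to 6.81 CPM against 11.7 to 13.9 CPM, are shown to place the words, in capitals, before the RefSeq start of each gene (5′ to 3′, minus strand, chr1:128359706-128359955, and plus strand, chr11:98907901-98908150). GENCODE M21 starts Cdc6 further upstream, at chr11:98907801-98923940, so that the window of Cdc6 lies within the gene as annotated there.
Mcm6: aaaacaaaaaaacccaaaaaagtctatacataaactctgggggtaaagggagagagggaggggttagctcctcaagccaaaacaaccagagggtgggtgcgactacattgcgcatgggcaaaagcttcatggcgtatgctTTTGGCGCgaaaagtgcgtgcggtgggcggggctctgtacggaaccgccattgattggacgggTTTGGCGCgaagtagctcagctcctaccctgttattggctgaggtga
Cdc6: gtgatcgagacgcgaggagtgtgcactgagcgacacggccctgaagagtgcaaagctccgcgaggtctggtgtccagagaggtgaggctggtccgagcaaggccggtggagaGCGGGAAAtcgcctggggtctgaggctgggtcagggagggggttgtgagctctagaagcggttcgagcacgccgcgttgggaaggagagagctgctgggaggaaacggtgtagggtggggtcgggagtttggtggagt

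Genes of glycolysis and hypoxia were higher in 18 of 27 and lower in 1. Slc2a3, a glucose transporter, was at 48.4, 57.0, 76.0 and 65.4 CPM in Wt1, Wt2, Ho1 and Ho2 against 13.1 to 18.1 CPM (1.92), and Ldha, lactate dehydrogenase, was at 3367 to 4327 CPM against 2477 to 2867 CPM (0.53). Gapdh was the gene called lower, by 0.16. Of the 27 cholesterol synthesis genes 6 were higher and 3 lower. Cyp51 itself was at 81.3, 118.2, 94.1 and 93.6 CPM against 61.7 to 69.2 CPM (0.58, adjusted p = 1.56e-05, edgeR), and with cells thinned to 5000 UMIs its log2 fold change was −0.03, beside the −0.23 of all genes, and it was not called. Of the dissociation and heat shock genes, which rise during tissue digestion, 7 of 28 were higher and 10 lower. Without Ho1 the counts of higher and lower genes were 15 and 3 for the outflow tract and second heart field factors, 14 and 0 for smooth muscle, 26 and 6 for cardiac jelly and matrix, 16 and 1 for glycolysis and hypoxia, 3 and 22 for chamber working myocardium, 15 and 14 for sarcomere, and 3 and 3 for cholesterol synthesis. Of all 13412 genes tested without Ho1, 1599 were higher and 1692 lower. The counts for cholesterol synthesis lie near these shares. Without Wt2 4 genes of cardiac jelly and matrix were lower and 2 of chamber working myocardium higher. Of all 13351 genes tested without Wt2, 1522 were higher and 1593 lower.

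**Figure D4:**
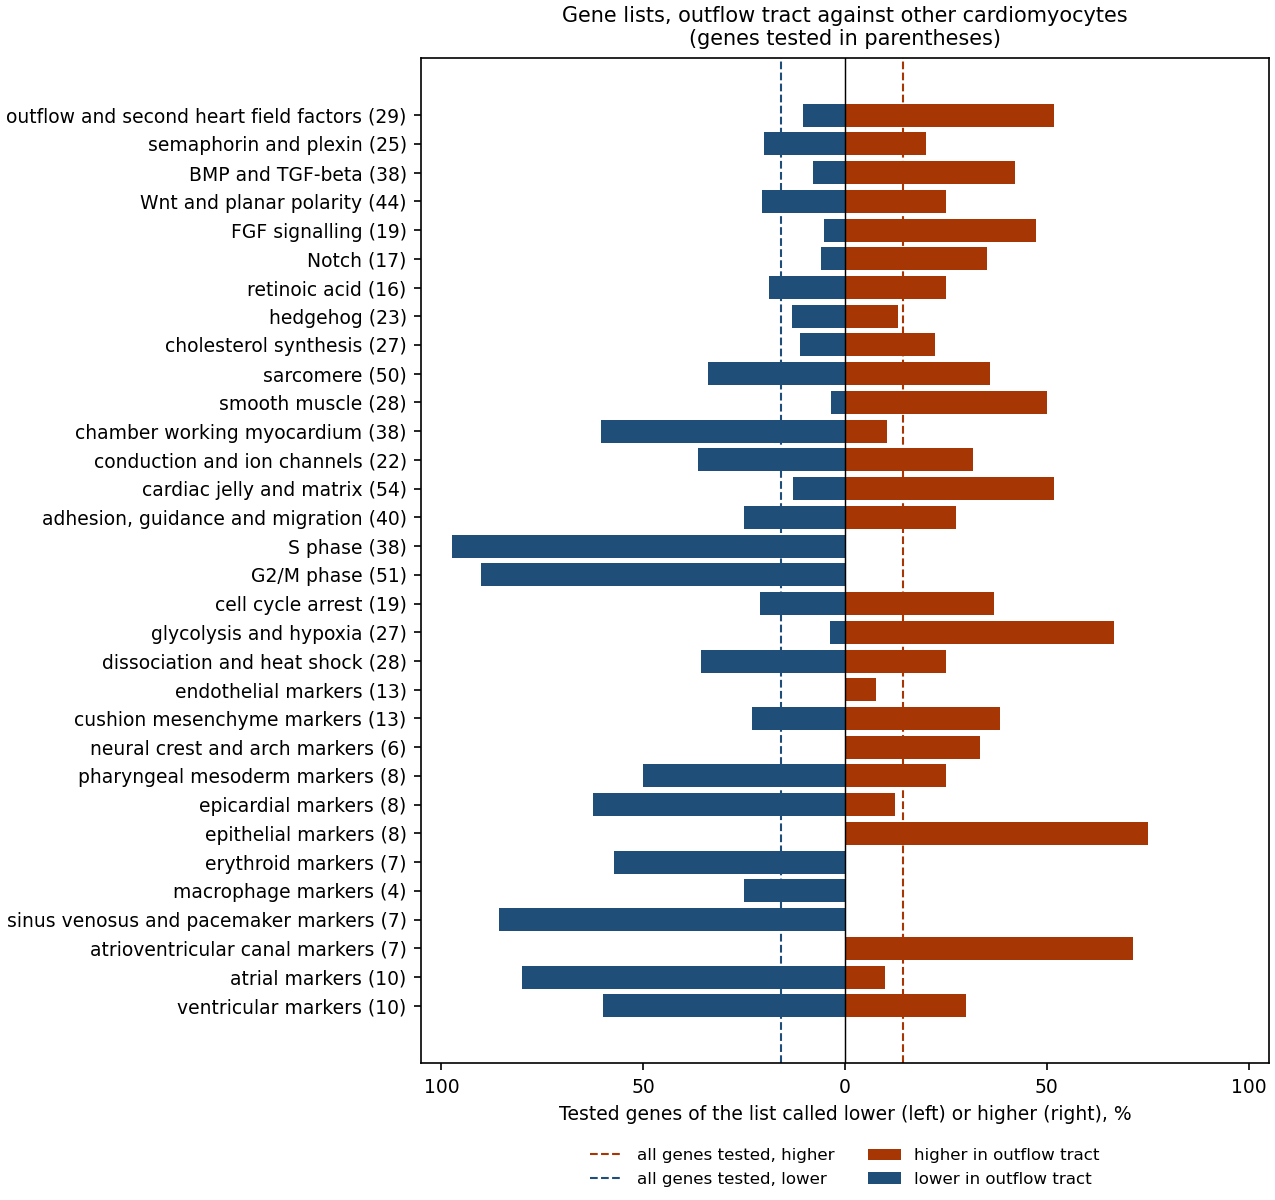
Share of the tested genes of each list called lower (left, blue) or higher (right, red) in outflow tract cardiomyocytes than in other cardiomyocytes, with the number tested in parentheses. Dashed lines give the shares over all 13603 genes (15.8% lower and 14.3% higher). S phase and G2/M phase genes reach furthest to the left (37 of 38 and 46 of 51), and epithelial, atrioventricular canal and glycolysis genes furthest to the right.

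Markers of other cells were also measured. Of 13 tested endothelial markers 1 was called, Kdr, at 23.6 to 47.6 CPM against 15.9 to 19.3 CPM. The endothelial list summed to 157.5, 213.0, 196.2 and 76.4 CPM in Wt1, Wt2, Ho1 and Ho2 and to 107.8 to 197.8 CPM in the other cardiomyocytes, its most abundant gene was Egfl7, and Cldn5 was at 0. Without the cells that had 3 or more endothelial UMIs, 3955 genes were called and 3783 of them were among the 4085. Epithelial markers were higher in 6 of 8 tested. Epcam, an adhesion molecule of epithelia, was at 67.5 CPM in Wt1 and 27.3 CPM in Ho2 but at 0.46 CPM in Wt2 and 0.60 CPM in Ho1, where the most in 1 cell was 1 UMI of Epcam, Cldn6 and Cldn7 together. In Wt1 and Ho2, 5 cells each had 3 or more UMIs of these genes, 2 of them doublets by Scrublet in each library. Epithelial genes were abundant in the Sema3c cells with low Tnnt2, with Epcam at 566.0 CPM in Wt1 and 500.9 in Ho2. The epithelial list summed to 307.0, 168.6, 119.9 and 281.0 CPM in the outflow tract cells, Krt18 was its most abundant gene, and none of its genes was at 0. Without those 10 cells 2 of 4 tested markers were called, 4234 genes were called in all, and 37 S phase and 47 G2/M genes were lower. Of 13 cushion mesenchyme markers 5 were higher and 3 lower, with Tnc the most abundant. That list summed to 292.6 to 459.1 CPM in the outflow tract cells and to 130.7 to 177.5 CPM in the other cardiomyocytes. Of 6 tested neural crest and arch markers 2 were called higher and 5 had a positive log2 fold change, while Sox10, Dlx1, Tfap2b and Foxd3 were at 0. This list summed to 252.6 to 298.1 CPM against 125.4 to 197.9 CPM, and Prrx2 made up 52.2% of it in the outflow tract cells. Of 8 pharyngeal mesoderm markers 2 were higher and 4 lower, with Msc at 0, and of 8 epicardial markers 1 was higher and 5 lower, with Bnc1 and Upk2 at 0. Macrophage markers summed to 1.8 to 7.1 CPM, with Ptprc and 6 more of 10 at 0, and erythroid markers to 2.7 to 23.5 CPM. Markers of the sinus venosus were lower in 6 of 7 and atrial markers in 8 of 10. Atrioventricular canal markers were higher in 5 of 7, with Rspo3 the most abundant, but in 3 of 6 against the limited set of other cardiomyocytes, where Tbx2, a T-box repressor of the canal and outflow tract, lost its call (log2 fold change 0.29, adjusted p = 0.14, edgeR, from 0.78). Ventricular markers were higher in 3 and lower in 6 of 10. Against that set 3 epicardial markers were lower, and without Ho2 3 cushion mesenchyme markers were higher. None of the 4 Y chromosome genes was called. Of 7 erythroid markers 4 were lower, and none of the 4 that could be tested without Ho1. What part cells of other kinds have in the list results beyond these values was not tested.

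The outflow tract cells were also split by Isl1. Cells with an Isl1 UMI (46, 91, 58 and 77 in Wt1, Wt2, Ho1 and Ho2) and those without (18, 17, 36 and 22) had like depths, with medians of 16137 and 16573 UMIs in Wt1, 18427 and 20045 in Wt2, 17561.5 and 18073.5 in Ho1 and 20448 and 22258 in Ho2. Of 2562 genes at 50 CPM or more, 340 were higher with Isl1 in all 4 libraries and 234 were lower. This is a description with no test, since some genes go 1 way in 4 libraries when nothing differs, and the genes named here are those with the largest median ratios, from groups as small as 17 cells. Rgs5, a regulator of G protein signalling in mural cells, was at 76.4, 63.6, 32.2 and 80.1 CPM with Isl1 and at 12.3, 0, 16.2 and 9.6 CPM without. Col1a2 was at 76.4, 117.6, 72.3 and 85.8 CPM against 15.3, 14.7, 32.4 and 11.52 CPM. Nrp2, Hand1, Jag1, Tgfbi, Actb and Cald1 were the other leading genes on that side. On the other side Myl2 was at 947.3, 996.8, 1227 and 887.3 CPM with Isl1 and at 1672, 2769, 1698 and 3476 CPM without, and Kcne1, Trdn and Cox6a2, genes of the muscle membrane, the calcium store and the respiratory chain, were also lower with Isl1. So were the other leading genes of that side, Capn6, Gpx3, Crip1 and Ube2c. Ube2c was at 333.3, 150.8, 324.3 and 488.1 CPM with Isl1 and at 623.0, 577.5, 607.3 and 656.8 CPM without. Hand1 and Rgs5 went the other way with Tdgf1. Phlda2 had the widest gap with Tdgf1, at 2.26 to 17.7 CPM in cells with a UMI of it and at 75.6 to 117.4 CPM in those without. Cells with Tdgf1 numbered only 6, 10, 22 and 16 and were the deeper ones.

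The mutant was compared with the wild type within the outflow tract cardiomyocytes. No gene of 9362 tested was called by edgeR at an adjusted p under 0.05 (0%), and none by DESeq2. At an unadjusted p under 0.05 there were 317 genes by edgeR (3.39%) and 47 by DESeq2. In simulated sums of this size edgeR recovered 78 of 200 genes changed by 1 on the log2 scale and 2 of 200 changed by 0.5, so most differences of these sizes would be missed with these libraries. Without Ho1, 4 genes were called. In the scaling of this comparison Cyp51 was at 84.1 and 120.8 CPM in Wt and at 95.7 and 96.4 CPM in Ho (log2 fold change −0.12, SE 0.19), and the Ho values lay between the Wt values. The base change itself cannot be read from these counts.

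Gata4, a factor of heart development, was at 41.1 and 44.1 CPM in Wt and at 43.0 and 42.1 CPM in Ho (log2 fold change −0.01, SE 0.19). Ptch1 was at 17.9 and 13.3 CPM in Wt and at 19.0 and 26.2 CPM in Ho (0.60, SE 0.29). Gli1, a target of hedgehog signals, had 1 UMI in Wt1, 6 in Ho2 and none in Wt2 and Ho1, too few to test. Of the 27 hedgehog genes 8 were tested and none was called, and of the 25 tested cholesterol synthesis genes none was called. In the latter list 7 genes had both Ho values above both Wt values and 3 had them below, against 15.2% and 15.2% of all genes. Outflow tract and second heart field factors, with 24 tested genes, had a median of 0.03, beside 0.00 for all genes, with 4 above and 4 below without overlap.

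The 10 genes with the lowest unadjusted p, among those at 20 CPM or more in the higher genotype, are given as values only. Sfrp1, a secreted Wnt inhibitor, was at 118.0 and 142.6 CPM in Wt and at 70.6 and 72.1 CPM in Ho (log2 fold change −0.88, SE 0.17, adjusted p = 0.85, edgeR). Dlk1, a non-canonical Notch ligand, was at 170.8 and 249.2 CPM in Wt and at 92.1 and 139.5 CPM in Ho. Fosb, an immediate early gene that also answers to tissue digestion, was at 36.7 and 39.8 CPM in Wt and at 78.6 and 65.5 CPM in Ho. Cacna2d2, a calcium channel subunit, was at 10.7 and 9.47 CPM in Wt and at 21.5 and 23.9 CPM in Ho. Kif11, a mitotic kinesin, was at 17.0 and 8.05 CPM in Wt and at 23.3 and 30.9 CPM in Ho. The others were Rps27rt, Spin2c, Wdr89, mt-Nd3 and Plac8. The genotypes did not overlap for any of the 10, and a choice by lowest p favours such genes. Reads of Rps27rt and Spin2c can be shared with near-identical copies, so that their counts are uncertain.

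**Figure D5:**
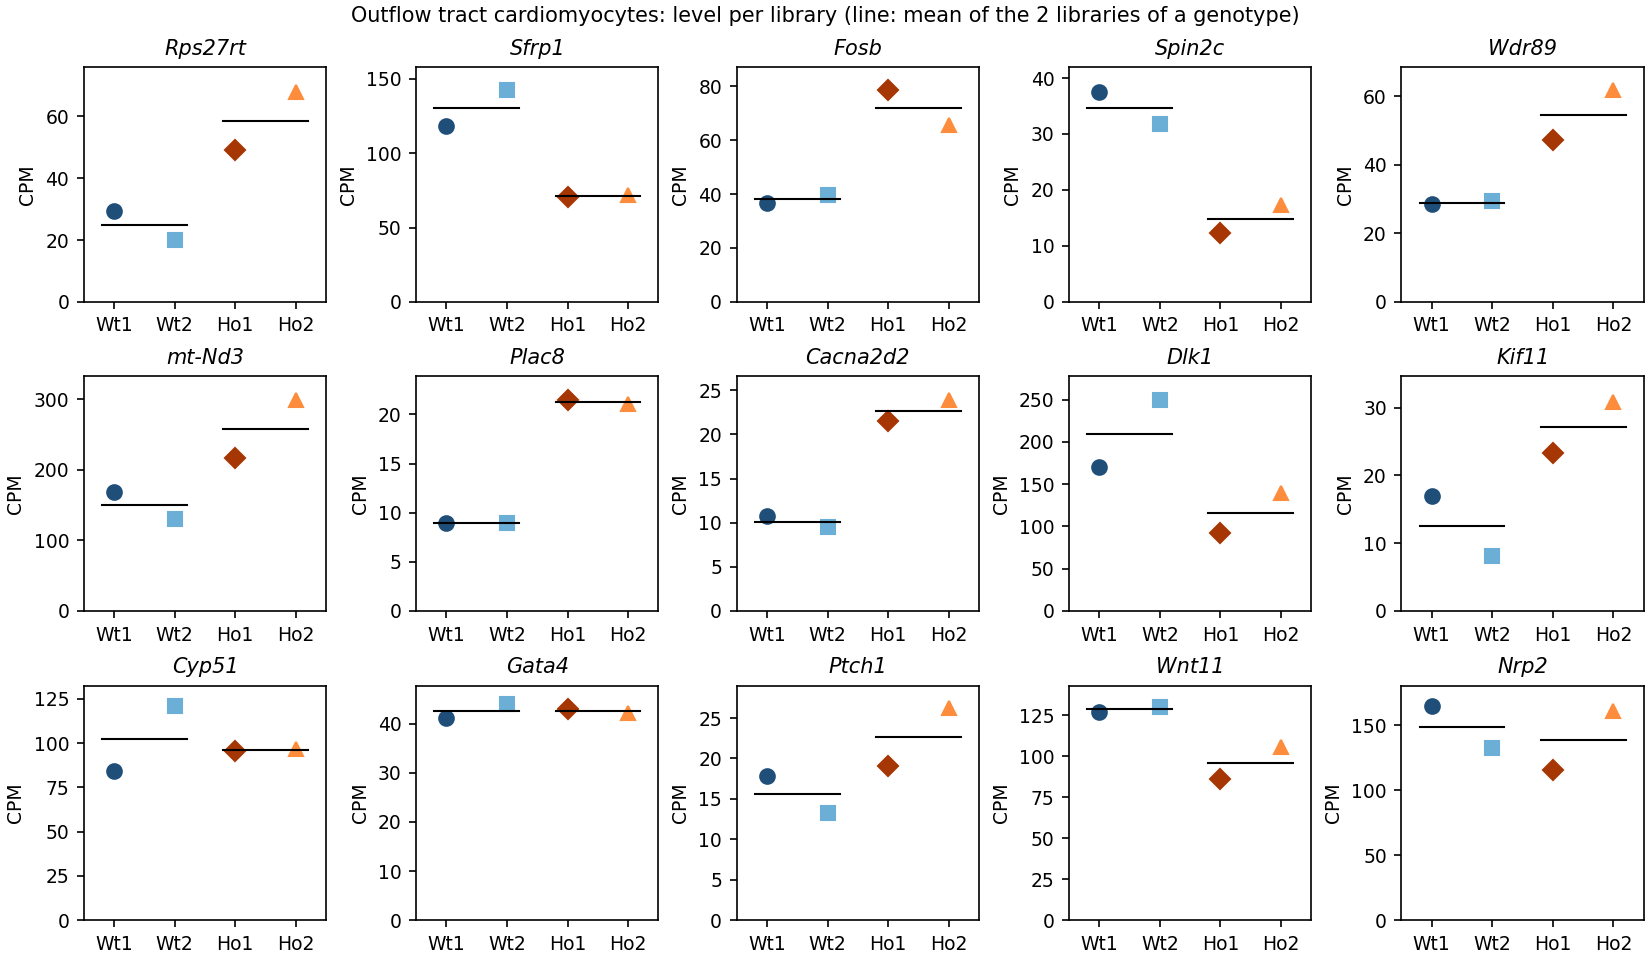
Level in the outflow tract cardiomyocytes of each library, in CPM, for the 10 genes with the lowest unadjusted p (first 2 rows) and for 5 genes given as checks or markers (last row). Each symbol is a library and each line the mean of the 2 libraries of a genotype. Cyp51 and Gata4 overlap between the genotypes, and no gene passed an adjusted p of 0.05.

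Of the 49 tested G2/M phase genes 11 had an unadjusted p under 0.05, and 14 had both Ho values above both Wt values, against 3.39% and 15.2% of all genes, while 1 had them below. The median log2 fold change of the list was 0.37. The list summed to 3765 and 2299 CPM in Wt1 and Wt2 and to 3292 and 4013 CPM in Ho1 and Ho2, with Wt2 the lowest, and to 5096 to 5300 CPM in the other cardiomyocytes. Without Wt2 the median was −0.03, without Wt1 0.71, without Ho1 0.43 and without Ho2 0.20. All 9 tested endothelial markers had a negative log2 fold change in the same comparison, with a median of −0.44 that was 0.36 without Ho2, whose endothelial sum of 76.4 CPM was the lowest, and all 13 tested in the interaction were negative, with a median of −0.50. None was called in either. Without the cells that had 3 or more endothelial UMIs the median of the G2/M phase list was 0.36. S phase genes had a median of 0.01, with 1 gene above and 1 below without overlap among 36. Other lists had like or larger shares of genes with both Ho values above both Wt values, among them cholesterol synthesis (7 of 25), FGF (5 of 16), conduction (5 of 15), semaphorin (3 of 10) and hedgehog (3 of 8). All 4 tested markers of the sinus venosus, Hcn4, Tbx3, Vsnl1 and Cacna2d2, were higher in Ho without overlap, 2 of them at an unadjusted p under 0.05 and none called by edgeR, with a median of 0.86. The whole list of 8 genes did not follow them. It summed to 428.8 and 488.4 CPM in Wt and to 421.2 and 445.3 CPM in Ho, which overlap. Bmp4, a rule gene left out of the tests, made up 88.0% of that sum. In the scaling of the class comparison Bmp4 was at 379.6 and 444.4 CPM in Wt and at 364.8 and 358.4 CPM in Ho.

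Whether the genotypes differed more or less in outflow tract than in other cardiomyocytes was tested as an interaction within libraries. Of 13603 genes 1 was called by edgeR (0.00735%), Hbb-y, an embryonic globin, and 405 had an unadjusted p under 0.05 (2.98%), while DESeq2 called none. Hbb-y was at 0.86, 16.7, 10.3 and 3.63 CPM in the outflow tract cells of Wt1, Wt2, Ho1 and Ho2 and at 2.11, 5.00, 61.0 and 5.75 CPM in the other cardiomyocytes, so Wt2 was highest among the former and Ho1 among the latter. The other cardiomyocytes of Ho1 also had Hba-x, an embryonic globin of the alpha type, at 101.5 CPM. The log2 interaction of Hbb-y was −3.58, and the call was lost without Wt2 (−0.86, adjusted p = 1, edgeR), without Ho1 (−1.996, adjusted p = 0.50) and with doublets removed (−2.35, adjusted p = 1). Without Ho1 14 other genes were called. The next genes by p were Crabp1 (1.19, adjusted p = 0.13, edgeR), which was at 94.1 to 130.6 CPM in the outflow tract cells and at 48.4 and 19.8 CPM (Wt) and 12.4 and 18.5 CPM (Ho) in the other cardiomyocytes, and Bmp2, at 18.8 and 18.4 CPM in the other cardiomyocytes of Wt and at 30.1 and 39.4 CPM in those of Ho, with 33.8 to 42.4 CPM in the outflow tract cells. Neither was called.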

How the data were processed

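The authors aligned the reads of the 4 libraries to mm10 with Cell Ranger 6.1.1 and deposited raw UMI counts of 32285 genes per called barcode. Per the labels, Seurat 4.1.0 was also used, and its output was not used here. Here, barcodes with 500 to 6000 genes, 2000 to 50000 UMIs and at most 20% mitochondrial UMIs were kept. UMIs were summed per library and class, to between 1123949 and 2117174 UMIs for outflow tract cardiomyocytes and between 22682447 and 64019090 for other cardiomyocytes.

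edgeR 4.0.16 in R 4.3.3 fitted the sums with the quasi-likelihood test (TMM, filterByExpr, Benjamini-Hochberg adjustment, threshold 0.05). Classes were compared with the library as a block, genotypes with 2 libraries each, and their difference as an interaction within libraries. The 7 rule genes were left out of the tests and kept in library sizes. An SE is the log2 fold change divided by the root of F. Doublets were marked with Scrublet (scanpy 1.11.5) and kept. Alternatives were DESeq2 1.42.0, RLE scaling, other filters and limits, thinning, and leaving out each library.

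Named genes were the 15 largest rises and 15 largest falls at 20 CPM or more that moved alike in all 4 libraries, the 10 lowest p between genotypes, check genes, and members of 33 gene lists. Of the falls 1 is not reported here. Cells, members and lists were chosen with earlier results of these data known, so list counts are descriptions. A count of 0 allows up to 3 counts. On simulated data with 200 changed genes, edgeR recovered 136 of those changed by 1 on the log2 scale between the classes and 72 in the interaction, of 13603 genes, and 73 and 3 at 0.5. Positions are those of GENCODE M21, and promoter sequences those of RefSeq.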

Additional observations from a re-analysis of the deposited data

Results flagged for a closer look

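Hbb-y was flagged because its genotype effect differed between outflow tract and other cardiomyocytes, by −3.58 on the log2 scale (SE 0.53, adjusted p = 0.022, edgeR interaction). Its high level of 61.0 CPM lay in the other cardiomyocytes of Ho1, where the erythroid list summed to 229.1 CPM against 23.5 CPM in the outflow tract cells of that library, and the highest level among the outflow tract cells, 16.7 CPM, lay in Wt2. It was not called without Wt2 (−0.86, adjusted p = 1, edgeR), without Ho1 (−1.996, adjusted p = 0.50) or with doublets removed (−2.35, adjusted p = 1). Rps27rt was higher in outflow tract than in other cardiomyocytes in both Ho libraries and lower in both Wt libraries, with an interaction of 0.40 on the log2 scale. Plac8 showed the same pattern with an interaction of 0.74. Neither passed the test of that difference (adjusted p = 1 for both, edgeR), and both were chosen among the genes with the lowest p between the genotypes.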

How the results depend on the processing

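Outflow tract against other cardiomyocytes kept its count within 1.5 times of 4085 under DESeq2 (3112), RLE scaling, both filters on low counts, the other limits and the removal of doublets, and leaving out 1 library gave 3115 to 3729. With cells thinned to 5000 UMIs 937 genes were called, 853 of them among the 4085, from 11, 19, 25 and 26 outflow tract cells. Of the 937, 240 were higher and 697 lower, a less even split than the 1940 and 2145 of the main fit. Thinned counts are not given here for the other lists, among them smooth muscle, matrix, glycolysis, chamber, sarcomere and FGF. Those list results are not shown to hold at equal depth. Tbx2 then had −0.67 and Cyp51 −0.029, beside −0.23 for all genes. Ho against Wt gave 0 calls under every alternative except no filter on low counts (12) and leaving out 1 library (4 to 18), where the lone library of a genotype is assumed to vary like the others. The fit with the replicate number as a block also gave 0 calls. The numbers were not shown to pair the libraries, since the deviations of same-numbered libraries had a correlation of −0.094. In that comparison Cyp51 turned to 0.037 with Tnnt2 at 30 CP10K and ranged from −0.33 to 0.19 when 1 library was left out, and Gata4 turned to 0.25 with Sema3c at 3 UMIs, to 0.067 without cells with endothelial UMIs and to 0.029 without cells with epithelial UMIs, and ranged from −0.056 to 0.049. The interaction gave 1 call with RLE scaling and 0 with at least 10 UMIs in every sum, with thinned cells, DESeq2, doublets removed, no library block or the limited set of other cardiomyocytes. It gave 2 with at most 10% mitochondrial UMIs and 2 without cells with endothelial UMIs, 4 without cells with epithelial UMIs, 5 with Tnnt2 at 30 CP10K, 13 with Sema3c at 3 UMIs, 18 with no filter and 10 to 37 when 1 library was left out. Hbb-y turned to 0.65 with Tnnt2 at 30 CP10K, with thinned cells Sfrp1 turned to 0.17, Hspa1a to 0.89 and Hba-x to 3.84, and Gal ranged from −9.93 to 4.75. The difference in share among cardiomyocytes was −0.771 percentage points when not thinned and −0.211 when thinned to 2000 UMIs, 0.362 with Tnnt2 at 30 CP10K and 0.0237 with Sema3c at 3 UMIs, beside 0.151 when thinned to 5000 UMIs, and ranged from −0.0473 to 0.349 when 1 library was left out. Among all cells it was 0.331 when not thinned, −0.0300 when thinned to 2000 UMIs and 0.0517 with Sema3c at 3 UMIs, beside 0.194 when thinned to 5000 UMIs. When 1 library was left out, the difference among all cells ranged from 0.120 to 0.269. The causes were not tested. The removal of cells with endothelial or epithelial UMIs and the limited set were chosen after seeing the data. The comparison of genotypes rests on 2 libraries each, and the smallest outflow tract sum held 1123949 UMIs.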
